A study of Mus musculus with 10 samples.

Results

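The EGF family genes described here are 3 receptors (Egfr, Erbb2 and Erbb3), 6 ligands of EGFR (Egf, Areg, Ereg, Btc, Hbegf and Tgfa) and Errfi1, a feedback inhibitor of the receptors. They were taken by gene symbol, and all 10 were found among the 54838 genes of the table, and all 10 passed the filter on low counts that left 14719 genes for testing. Their RNA was measured by bulk RNA-seq of jejunal crypts in 5 WT animals and 5 Arid3a cKO animals, each with a library of its own. All animals had received tamoxifen on 3 consecutive days and were killed 1 month after the first injection. The cKO animals were VillinCre-ERT2 +/-; Arid3a fl/fl, in which a tamoxifen-activated Cre under the control of Villin deletes Arid3a in intestinal epithelial cells. The WT animals are given as WT without their alleles or Cre status, and no age or sex is given for either genotype. The animal identifiers of the genotypes had no stem in common, and what the stems stand for is not given.

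ERBB receptors are tyrosine kinases that pair when a ligand binds. EGFR binds the EGF-like ligands, ERBB2 has no known ligand of its own and serves as a partner, and ERBB3 has little kinase activity, binds neuregulins and signals to PI3K through a partner. The ligands are made as membrane-anchored precursors that proteases such as ADAM17 and ADAM10 release, and ERRFI1 (also called MIG6) binds the active kinase and blocks it. In the small intestine EGF-like ligands come from Paneth cells at the crypt base and from the tissue around the crypt, and EGF is a standard component of organoid medium.

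The libraries held 27050455 to 31053622 counts. The targeted gene, Arid3a, ranged from 55 to 81 counts in the WT animals and from 9 to 31 in the cKO animals, without overlap. Of the cKO animals, numbers 4 and 5 had the most. Marker genes of epithelial types were present in all libraries, and 9 of 9 enterocyte markers were higher in cKO crypts and 6 of 7 Paneth cell markers lower. The summed TPM of the enterocyte markers ran from 1384 to 7030 in WT and from 7284 to 14483 in cKO animals, with cKO animals 4 and 5 the highest. That of the Paneth cell markers ran from 54254 to 77052 in WT and from 30513 to 42519 in cKO animals. Of the other marker lists, 5 of 7 stem cell, 1 of 11 leukocyte and 2 of 10 stromal genes were lower. Higher were 3 of 5 enteroendocrine and 2 of 4 tuft cell genes, and 0 of 6 goblet cell genes passed the test. Over all genes tested, 12.7% were lower and 15.6% higher. Crypts are a mixture, so a change in the number of cells of a type and a change in RNA per cell cannot be told apart. The part of these marker differences in the results that follow was not tested.

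The promoter sequences of Errfi1 and Areg are shown because only these members carried a cAMP response element (CRE, TGACGTCA) upstream of a start, and both had a TATA box (TATAAA) closer to it. RefSeq for GRCm38.p6 gave 9 promoters for 7 of the 10 members, and none was listed there for Erbb3, Ereg and Hbegf. Each sequence below is the 250 bases before the start, 5′ to 3′ on the gene's strand, with the motif letters in capitals. That of Errfi1 belongs to the downstream of its 2 listed starts, at chr4:150854820-150855069 on the + strand, and that of Areg is chr5:91139349-91139598, also on the + strand.
Errfi1: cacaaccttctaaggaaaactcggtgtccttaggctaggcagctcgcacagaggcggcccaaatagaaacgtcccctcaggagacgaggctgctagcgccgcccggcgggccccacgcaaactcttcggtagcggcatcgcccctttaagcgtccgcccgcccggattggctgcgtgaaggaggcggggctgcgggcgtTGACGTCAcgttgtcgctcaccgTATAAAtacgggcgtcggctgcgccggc
Areg: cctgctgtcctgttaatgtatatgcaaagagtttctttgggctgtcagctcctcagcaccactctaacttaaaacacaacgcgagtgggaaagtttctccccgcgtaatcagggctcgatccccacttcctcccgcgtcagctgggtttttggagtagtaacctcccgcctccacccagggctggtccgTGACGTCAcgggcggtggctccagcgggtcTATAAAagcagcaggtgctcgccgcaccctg
The CRE began 51 bases before the start in Errfi1 and 61 in Areg, and the TATA box 28 and 31 bases before it. Of 32851 promoters of the same length, 1.55% held the CRE, 12.4% the TATA box on either strand and 0.119% both. The last share is for the pair that these promoters held, out of 7 motifs searched, and takes no account of order. It is thus no measure of how rare such a match is. Beside these, 5 further motifs were searched on both strands: AP-1 (TGANTCA, in 6.75% of all promoters), E2F (TTTCCCGC, 0.895%), ETS (CCGGAAGT, 2.88%) and an HNF4 repeat (CAAAGTCCA, 0.384%), as well as the HNF1 motif (0.0609%). The only other match among the members was the ETS letters 45 bases before the internal start of Egf. These are matches of letters and not shown to be bound sites.

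In WT crypts the receptors that lack a ligand or a strong kinase of their own were the most abundant. Levels are compared between genes in TPM, a share of all transcripts that corrects for their length. Erbb3 stood at 38.1 ± 8.28 TPM (SD, n = 5), Erbb2 at 29.5 ± 3.51 TPM and Egfr at 8.10 ± 2.11 TPM. The 5 WT values of Erbb2 and Erbb3 overlapped, although Erbb3 was above Erbb2 in each of the 5 animals, and the highest Egfr value (10.04 TPM) lay well below the lowest of Erbb2 (24.9 TPM). Errfi1 followed at 7.56 ± 0.585 TPM.

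Among the ligands of WT crypts, Tgfa, which encodes TGF-alpha, led with 7.07 ± 0.781 TPM, within the range of Egfr and Errfi1. Btc (betacellulin) at 3.07 ± 0.548 TPM, Hbegf at 2.48 ± 0.443 TPM and Areg (amphiregulin) at 1.56 ± 0.709 TPM formed a middle group, in which each overlapped its neighbour. Egf, the founding ligand, reached 0.774 ± 0.336 TPM and overlapped Areg, and Ereg (epiregulin) was lowest at 0.112 ± 0.0507 TPM. Only 5 to 18 counts stood behind Ereg in a WT library, so a change of its level was hardly detectable at this depth.

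**Figure D1:**
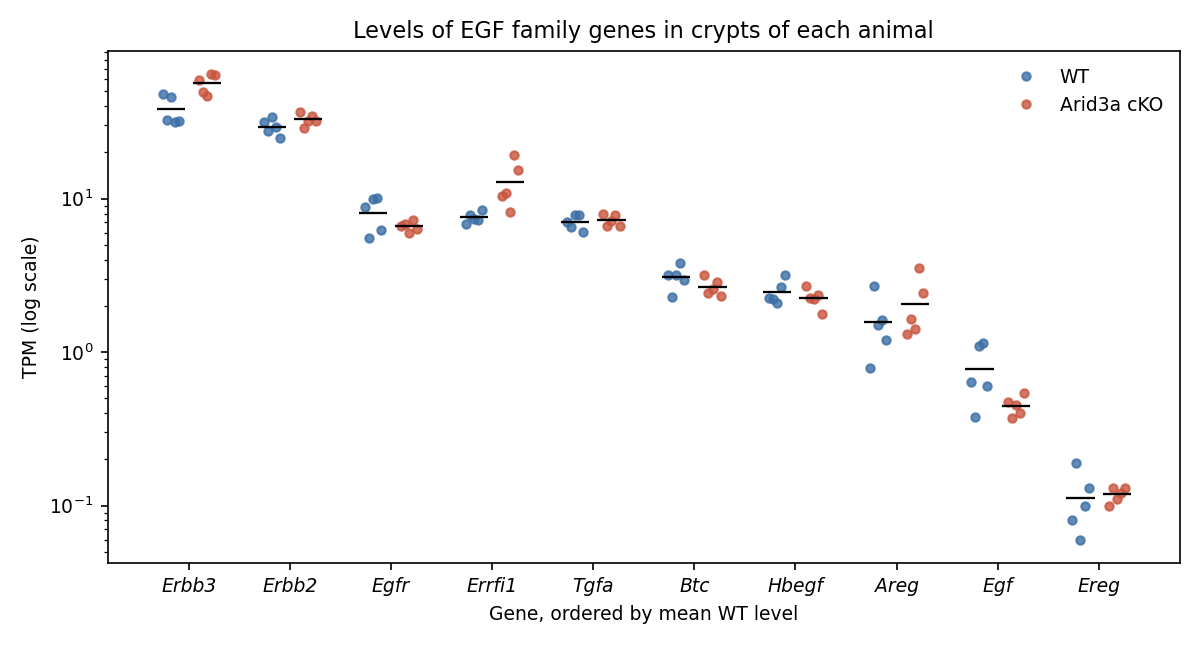
TPM (log scale) of the 10 EGF family genes in crypts of each animal, with WT in blue and Arid3a cKO in red. Each point is 1 animal and each line the mean of 5, and genes are ordered by their WT mean, from Erbb3 at 38.1 TPM to Ereg at 0.112 TPM.

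In cKO crypts the order of the ligands by mean was the same as in WT crypts, and the means of Errfi1 and Tgfa were above that of Egfr. The WT order of these 3 genes was not firm, as Egfr was above Errfi1 in only 3 of 5 WT animals. Tgfa was above Egfr in 4 of 5 cKO animals. Errfi1 stood at 12.8 ± 4.41 TPM, Tgfa at 7.23 ± 0.629 TPM and Egfr at 6.60 ± 0.509 TPM, and only Tgfa and Egfr overlapped in this trio. The ranges of Erbb3 (46.4 to 64.9 TPM) and Erbb2 (28.8 to 36.8 TPM), which overlapped in WT crypts, were apart.

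The comparison of the genotypes asked whether loss of Arid3a changed the RNA of the receptors, their ligands and the inhibitor. Erbb3, Erbb2 and Errfi1 rose and none of the 6 ligands passed the test. These 3 of 10 members compare with 28.3% of all genes tested that passed the threshold of 0.05 (edgeR's quasi-likelihood test, Benjamini-Hochberg adjustment over 14719 genes), 15.6% higher and 12.7% lower. The share of members called was thus near that of all genes. The median log2 fold change was 0.15 over the members and -0.03 over all genes. For this comparison levels are CPM, counts scaled to the library size after TMM normalization without a correction for length, and the TPM of each member was compared as well by a two-sided exact permutation test over all assignments of the animals, 10 tests in all, whose smallest p is 0.00794.

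Erbb3 (chr10:128567523-128589652, - strand, GRCm38) showed the clearest change. It measured 214, 154, 208, 136 and 160.4 CPM in WT animals 1 to 5 and 288, 253, 231, 299 and 324 CPM in cKO animals 1 to 5. Every cKO animal was above every WT animal. Erbb3 was the only 1 of the 10 members without overlap in CPM, which 19.6% of all genes tested showed, 12.0% with the cKO animals above and 7.63% below. The mean went from 174 ± 34.5 to 279 ± 37.1 CPM, 1.60-fold (95% interval 1.31 to 1.96), with a log2 fold change of 0.68 (SE 0.13, edgeR adjusted p = 0.00444). In TPM the lowest cKO value (46.4) fell just under the highest WT value (48.2), and the exact permutation test gave p = 0.0159 for a log2 difference of 0.59. Leaving out any 1 animal gave log2 fold changes between 0.60 and 0.76, all past the threshold.

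Errfi1 (chr4:150853919-150868892, + strand) changed most in size. WT animals 1 to 5 had 15.2, 18.5, 16.6, 15.4 and 20.98 CPM, and cKO animals 1 to 5 had 24.97, 27.1, 19.9, 43.7 and 38.2 CPM. The groups overlapped only in that cKO animal 3 lay under WT animal 5, and cKO animals 4 and 5 were far above the other 3. Errfi1 rose 1.77-fold (1.31 to 2.40), a log2 fold change of 0.83 (SE 0.20, edgeR adjusted p = 0.0113), and the exact permutation test on TPM gave p = 0.0159. The change remained past the threshold without any 1 animal, at 0.67 to 0.95. cKO animals 4 and 5 also had the highest Erbb3, enterocyte marker sums (14483 and 14197 TPM) and Arid3a (26 and 31 counts) of the cKO animals. Their stromal (75.4 and 26.4 TPM) and leukocyte marker sums (564 and 405 TPM) were the highest of the cKO animals as well. The paper reports ARID3A also in stromal cells, where it was unchanged in the cKO, and the part of those cells in the remaining Arid3a counts was not tested.

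Erbb2 (chr11:98412470-98437716, + strand) rose less. Its levels were 115, 107, 125, 103 and 103 CPM in WT animals 1 to 5 and 147, 121, 131, 133 and 131 CPM in cKO animals 1 to 5. Only cKO animal 2 was below a WT animal, number 3. The fold was 1.198 (1.07 to 1.34), with a log2 fold change of 0.26 (SE 0.07, edgeR adjusted p = 0.0208). This call depended on the scaling and on single animals: the log2 fold change was 0.13 (adjusted p = 0.207) on library size only, the exact permutation test on TPM gave p = 0.151, and the adjusted p was 0.0518 without WT animal 4 and 0.0549 without cKO animal 1. Erbb2 shares 9 exon bases with Mien1 on the opposite strand, which held 735 to 1164 counts per library.

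Egfr (chr11:16752203-16918158, + strand), the receptor of the ligands measured here, did not pass the test. WT animals 1 to 5 had 42.8, 29.2, 46.4, 42.8 and 30.95 CPM, and cKO animals 1 to 5 had 32.8, 40.4, 33.4, 39.1 and 34.4 CPM. All cKO values lay inside the WT range. The log2 fold change was -0.09 (SE 0.13, 95% interval -0.37 to 0.19, edgeR adjusted p = 0.619), so a fall to 0.772-fold or a rise to 1.14-fold lay within the interval. In TPM the log2 difference was larger, at -0.25, and the exact permutation test gave p = 0.19. The median of all genes tested was lower in TPM as well, at -0.13 against -0.03 in the main fit. In TPM recomputed with TMM factors the difference of Egfr was -0.13.

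**Figure D2:**
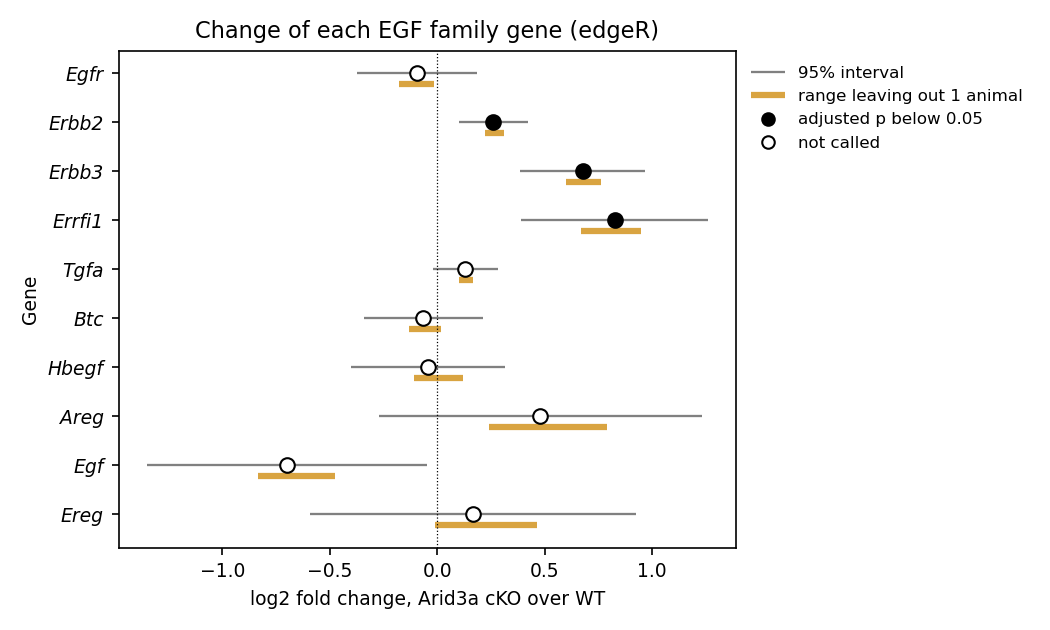
log2 fold change of each EGF family gene in Arid3a cKO over WT crypts, with its 95% interval (grey) and the range when any 1 animal was left out (yellow). Filled points mark an edgeR adjusted p below 0.05: Erbb2, Erbb3 and Errfi1 lie to the right of 0, Egf is the farthest to the left at -0.70 and was not called.

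The make-up of the receptor RNA shifted towards Erbb3. Erbb3 took 50.1% of the summed TPM of the 3 receptors in WT animals (44.7% to 54.4%) and 58.9% in cKO animals (54.9% to 62.8%). Egfr took 10.7% in WT (8.39% to 14.1%) and 6.89% in cKO animals (6.14% to 8.05%). Neither range overlapped between the genotypes, whereas that of Erbb2, at 39.2% and 34.3%, did. Per animal, Erbb3 was 3.17 to 5.91 times Egfr in WT and 7.23 to 10.2 times Egfr in cKO crypts. These shares and ratios restate the values above and were given no test.

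The 6 ligands together summed to 15.1 ± 1.36 TPM in WT and 14.8 ± 1.54 TPM in cKO animals, and these sums overlapped. Tgfa held 46.9% of this sum in WT and 49.0% in cKO crypts, Btc 20.3% and 18.04%, and Hbegf 16.5% and 15.3%. Each of these ranges overlapped between the genotypes.

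**Figure D3:**
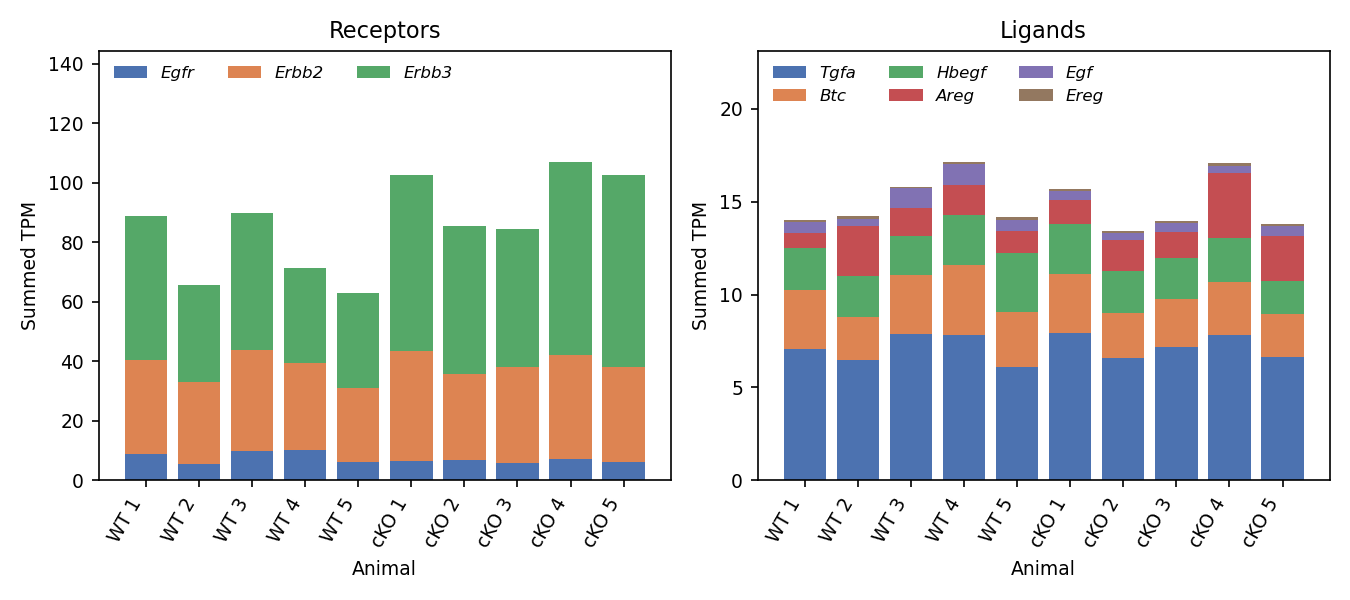
Summed TPM of the 3 receptors (left) and the 6 ligands (right) in each animal, stacked by gene. The Erbb3 segment is taller in cKO animals (46.4 to 64.9 TPM) than in most WT animals (31.8 to 48.2 TPM), and the ligand stacks reach 13.4 to 17.1 TPM in both genotypes together.

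Tgfa (chromosome 6) had a narrow spread, at 24.2 ± 1.54 CPM in WT animals and 26.5 ± 1.58 CPM in cKO animals. Its log2 fold change was 0.13 (SE 0.07, 95% interval -0.02 to 0.28, edgeR adjusted p = 0.179). A rise above 1.22-fold lay outside this interval. Btc stood at 6.32 ± 1.04 and 6.04 ± 0.444 CPM (log2 fold change -0.06, interval -0.34 to 0.21), and Hbegf, the heparin-binding ligand, at 4.39 ± 0.997 and 4.25 ± 0.563 CPM (-0.04, interval -0.40 to 0.31). For both, leaving out 1 animal could turn the sign.

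Egf (chromosome 3) was the ligand with the largest difference, and its WT animals disagreed among themselves. It had 50, 35, 91, 81 and 29 counts in WT animals 1 to 5 and 29, 32, 41, 33 and 35 counts in cKO animals 1 to 5. WT animals 3 and 4 were far above all others, and WT animal 1 was above every cKO animal. WT animals 2 and 5 lay within the cKO range of counts. In TPM, WT animal 5 (0.60) was also above the highest cKO value (0.54), and only WT animal 2 (0.38) lay within the cKO range. The log2 fold change was -0.70 (SE 0.30, interval -1.35 to -0.05, edgeR adjusted p = 0.10), and the exact permutation test on TPM gave p = 0.0635. It was -0.83 (adjusted p = 0.0445) without WT animal 5 and -0.48 without WT animal 3, so single animals set on which side of the threshold it fell. The same WT animals 3 and 4 had the highest stem cell marker sums of all 10 (4500 and 4552 TPM). Their Paneth cell marker sums were also the highest (77052 and 62454 TPM), with WT animal 1 close to WT animal 4 (59448 TPM). Their enterocyte sums were the lowest (2045 and 1384 TPM). The part of these marker differences in Egf was not tested.

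Areg, Ereg and Btc lie with Epgn (epigen) in a cluster of ligand genes on chromosome 5, between 91027464 and 91402994 in GRCm38, and none of its tested genes passed the test. Areg had 19, 70, 38, 39 and 31 counts in WT animals 1 to 5 and 36, 43, 38, 90 and 61 in cKO animals 1 to 5. cKO animals 4 and 5 were the highest of the cKO animals, but WT animal 2 was higher than cKO animal 5. The log2 fold change of Areg was 0.48 (SE 0.35, interval -0.27 to 1.23, edgeR adjusted p = 0.319). Ereg had 5 to 18 counts in WT and 10 to 12 in cKO animals (0.17, SE 0.35), and Epgn, with 0 to 7 counts in any library, was not tested.

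Of the family outside the members, only Nrg4, a neuregulin that binds ERBB4, was abundant enough to test. It rose from 5.02 ± 0.538 CPM (4.41 to 5.64) to 6.93 ± 1.01 CPM (5.68 to 8.37), without overlap, with a log2 fold change of 0.47 (SE 0.13, edgeR adjusted p = 0.0186). In TPM the ranges of Nrg4 overlapped (3.98 to 6.60 in WT and 4.74 to 6.66 in cKO animals). Its call was lost on library size only (0.34, adjusted p = 0.0623) and with the effective length as an offset (0.36, adjusted p = 0.111). It was also lost in limma on TPM with a pseudocount of 0.1 (0.28, adjusted p = 0.191). Erbb4, the receptor of Nrg4, had 0 counts in all 10 libraries, which allows up to 0.1005 to 0.1135 CPM per library by counting error. Nrg3 was also at 0, Nrg2 had at most 2 counts, and Nrg1, a ligand of ERBB3, had 2 to 9 counts in WT and 0 to 3 in cKO animals. The neuregulins known to bind ERBB3, Nrg1 and Nrg2, were thus near the limit of detection in these libraries.

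Genes that act before and after the receptors were taken from lists, whose counts can be read against the 15.6% of all genes that were higher and the 12.7% that were lower. Of 7 tested proteases and regulators of ligand shedding, 0 rose and 1 fell. That gene was Rhbdf1 (iRhom1), which takes ADAM17 to the cell surface: 13.3 ± 2.07 CPM in WT and 9.20 ± 1.21 CPM in cKO animals, a log2 fold change of -0.53 (SE 0.13, edgeR adjusted p = 0.00945) without overlap. In TPM the ranges of Rhbdf1 overlapped. It kept its call in 10 of 11 alternative fits and lost it in limma on unfiltered TPM with a pseudocount of 1 (adjusted p = 0.0663). The proteases themselves had log2 fold changes of 0.02 (Adam17, SE 0.09) and 0.12 (Adam10, SE 0.08) and did not pass.

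Of 18 genes that restrain the receptors or the signal below them, 3 rose and 0 fell, while the count that fell was 1 or 2 in 7 of the 11 alternative fits, 1 without WT animal 1 and 2 without WT animal 2. Dusp6, a phosphatase of ERK, went from 6.39 ± 0.587 to 14.9 ± 5.19 CPM (log2 fold change 1.22, SE 0.22, edgeR adjusted p = 0.00275). Dusp5, a nuclear ERK phosphatase, went from 7.44 ± 1.44 to 11.4 ± 2.12 CPM (0.61, SE 0.16, adjusted p = 0.0139). Socs4, which promotes turnover of EGFR, went from 49.5 ± 4.73 to 63.9 ± 3.47 CPM (0.37, SE 0.08, adjusted p = 0.00467), a call that was lost with the effective length as an offset (0.23, adjusted p = 0.113) and in TPM (0.14, adjusted p = 0.406). Dusp6 and Dusp5 each kept the call in 10 of the 11 alternative fits. Both lost it in limma on unfiltered TPM with a pseudocount of 1 (adjusted p = 0.0645 and 0.0916). None of these 3 genes overlapped between the genotypes in CPM, while Dusp6 and Socs4 overlapped in TPM. Those that did not pass include Lrig1, a stem cell-expressed inhibitor of ERBB receptors (-0.30, SE 0.11, adjusted p = 0.0669), Cbl, a ubiquitin ligase for EGFR (-0.01, SE 0.11), Spry2 (0.10, SE 0.12) and the phosphatase Dusp4, at the threshold (-0.65, SE 0.23, adjusted p = 0.0506), and the median of the list was 0.06.

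Of 17 adaptors and members of the RAS-RAF-MEK-ERK chain, 1 rose and 0 fell. The count that rose was 0 to 3 over the alternative fits, and it was 4 without WT animal 2, 3 without WT animal 3 and 2 without WT animal 5, and the count that fell reached 4 on library size only. Map2k1, which encodes MEK1, went from 51.7 ± 3.94 to 63.6 ± 2.68 CPM (log2 fold change 0.30, SE 0.07, edgeR adjusted p = 0.00750). Its call was lost on library size only (adjusted p = 0.0501) and in limma on TPM (0.20, adjusted p = 0.0919). The list had a median of 0.00. Of 13 genes of the PI3K-AKT-mTOR arm, 0 rose and 1 fell, with a list median of 0.03. The kinase Akt1 fell from 236 ± 23.8 to 192 ± 11.7 CPM (-0.30, SE 0.08, edgeR adjusted p = 0.0139), without overlap. On library size only, which moved the median of all genes from -0.03 to -0.16, the medians of the shedding, restraint, RAS-ERK and PI3K-AKT-mTOR lists moved with it, to -0.11, -0.072, -0.13 and -0.099.

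The genes commonly used as readouts of ERK did not move one way. Of 14 tested, 2 rose and 3 fell, and the median log2 fold change was -0.28. Dusp6 and Fos rose, the latter from 16.7 ± 3.33 to 30.97 ± 10.9 CPM (0.89, SE 0.24, edgeR adjusted p = 0.0195), with overlap between the genotypes. The Fos call was lost without the filter (adjusted p = 0.0637), with the effective length offset (0.72, adjusted p = 0.0552) and in TPM (0.54, adjusted p = 0.148). Ccnd1, which encodes cyclin D1, fell from 165 ± 23.5 to 119 ± 11.6 CPM (-0.47, SE 0.10, adjusted p = 0.00600), and Myc from 115 ± 15.8 to 91.4 ± 4.05 CPM (-0.33, SE 0.09, adjusted p = 0.0177). Etv4, an ETS factor, fell from 9.76 ± 3.48 to 6.22 ± 1.07 CPM (-0.65, SE 0.22, adjusted p = 0.0412), a call that was lost when any of WT animals 4 or 5 or cKO animals 1, 2, 4 or 5 was left out, with values of -0.43 to -0.76 over all 10 animals left out in turn. Etv5 (-0.38, SE 0.22, adjusted p = 0.210) and the immediate early gene Egr1 (-0.82, SE 0.36, adjusted p = 0.114) did not pass. Ccnd1 and Myc are also targets of WNT signalling. The stem cell marker list, of which 5 of 7 genes were lower, moved along with them, and its part was not tested.

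**Figure D4:**
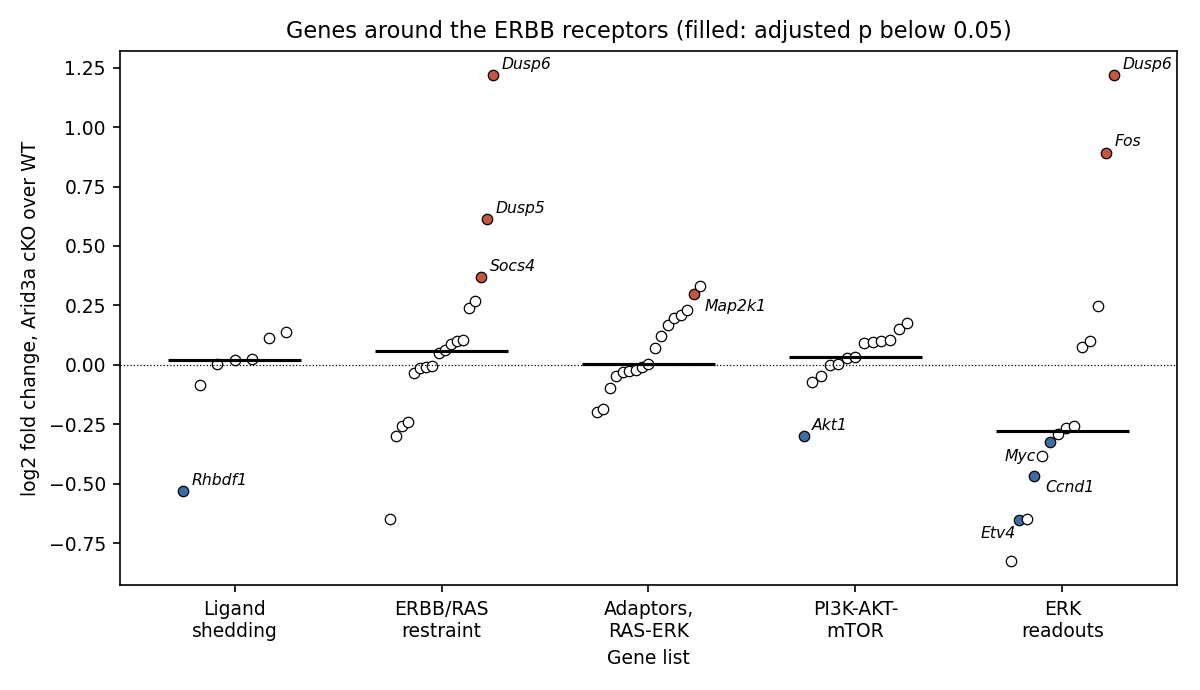
log2 fold change, Arid3a cKO over WT, of the tested genes in 5 lists around the ERBB receptors, 1 point per gene, with the list median as a line. Filled points passed an edgeR adjusted p below 0.05 and are named: the medians lie between 0.00 and 0.06 for 4 lists, against -0.03 for all genes, and at -0.28 for the ERK readouts, in which Dusp6 and Fos are far above 0 and Egr1 is the lowest without passing. Dusp6, Dusp4, Spry2 and Spry4 stand in the restraint list as well.

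The genes whose pattern over the 10 libraries was most like that of a receptor differed for each. Likeness was the root mean square difference of mean-centred log2 CPM. Armh4 (0.057), Sorl1 (0.070) and Prkdc (0.073) were nearest to Egfr, where the median gene was at 0.318. Gpc4 (0.047), Tbc1d14 (0.059) and Myo5b (0.060) were nearest to Erbb2, against a median of 0.290, and Hbp1 (0.094), Sgms2 (0.109) and Gm26616 (0.109) to Erbb3, against 0.485. A gene with a small spread is near to any other such gene, and these distances are a description.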

How the data were processed

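Libraries were made from poly(A) RNA. Reads were aligned by the authors with STAR, and genes of Ensembl release 95 (GRCm38) were quantified with RSEM. The deposited values used here are the expected count, the TPM and the effective length of every gene, the counts without scaling between libraries. The strand setting of the counting is not given in the sources used here, and RSEM divides reads that match several genes. The expected counts were rounded, filtered with filterByExpr (minimum count 10, minimum total count 15), scaled by TMM and tested with robust glmQLFit and glmQLFTest in edgeR 4.0.16 (R 4.3.3). Symbols and coordinates came from GENCODE for Ensembl release 96 (GRCm38), which left 115 gene identifiers, with 0.019% of the counts, unnamed. Single members were compared on log2(deposited TPM + 0.1), a scale that understates changes of low genes, by two-sided exact permutation tests. Members and lists were chosen with earlier results of these data known.

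The text names every member, the 3 genes nearest to each receptor, and each gene past the threshold in the lists of family and pathway genes. Marker lists are given by their counts. It also names 15 family and pathway genes whatever their result, some of which are among those past the threshold. Dusp4, Spry4, Nrg2, Nrg3 and Mien1 were named after their values were seen. Each animal was left out in turn, and the fit was repeated with DESeq2 1.42.0 and with voom and TPM in limma 3.58.1. It was also repeated with RLE factors or library size in place of TMM, and unfiltered or with a minimum of 10 counts in all libraries. Further fits used an effective length offset or a replicate block. The test was checked on simulated data. Reads carry no molecular identifiers, so the limit of 3 counts for a gene at 0 covers counting error only, and each library is 1 animal. A gene of the PI3K-AKT-mTOR list is not reported here and was left out of that list's counts and median.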

Additional observations from a re-analysis of the deposited data

How the results depend on the processing

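Erbb3, called higher in all 11 alternative fits and without any 1 animal, kept its direction and call. On library size only, the median of all genes went from -0.03 to -0.16, 4030 genes were lower in place of 1869 and 27.7% of calls were higher in place of 55.1%; Erbb2 was then at 0.13 and not called, Egf at -0.84 and called (adjusted p = 0.0490), and the list medians were -0.11 (shedding), -0.072 (restraint), -0.13 (RAS-ERK) and -0.099 (PI3K-AKT-mTOR). In limma on TPM with a pseudocount of 0.1, 1, or 1 without a filter, 1405, 1420 and 1130 genes were higher in place of 2298, with 33.9%, 34.2% and 37.4% of calls higher and a median of all genes of -0.13 in the first. Erbb2 (0.16 in each) was not called, Errfi1 (0.63) was not called in the last, and the medians were -0.087, -0.082 and -0.082 (shedding), -0.096, -0.094 and -0.094 (RAS-ERK) and -0.083, -0.082 and -0.082 (PI3K-AKT-mTOR). The cause of these shifts was not tested. Hbegf differed by 0.0016 in TPM recomputed with TMM factors.

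Leaving out 1 animal gave 1760 to 2572 genes higher and 1131 (without WT animal 4) to 2112 lower, Erbb2 at 0.22 to 0.31, Egf at -0.83 to -0.48, a RAS-ERK median of -0.011 to 0.035, and changes of sign for Ereg (-0.0083 without WT animal 3, up to 0.47, and in TPM -0.024 to 0.19), Btc (-0.13 to 0.018, highest without WT animal 4), Hbegf (-0.11 to 0.12, with 0.12 without WT animal 5 and 0.021 without cKO animal 5) and Tgfa in TPM (-0.016 without WT animal 5, up to 0.074). Nrg4 lost its call in 6 of 11 fits.

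Both genotypes carry numbers 1 to 5, but deviations of same-numbered animals correlated at -0.21 to 0.09. No WT animal correlated best with the cKO animal of its own number. These few correlations gave no sign of pairing by number, but they cannot exclude it. With the replicate block 1191 genes were lower, and Nrg4 (adjusted p = 0.0514) and Akt1 (0.0564) were not called. Ereg had no value with at least 10 counts in every sample. Counts below about 100 (Egf, Areg, Ereg) limit those ligands to large changes.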
